A study of Mus musculus with 7 samples.

Results

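The 10 genes described here encode transcription factors that drive or mark the oligodendrocyte lineage: Myrf, Sox10, Sox8, Olig1, Olig2, Nkx2-2, Nkx6-2, Zfp488, Zfp536 and Zfp24. They were listed by name for their known roles, with earlier results of these data in view, and all 10 were found among the 49315 gene identifiers of the count files. The libraries came from 7 cultures of mouse oligodendroglia, 4 from wildtype pups (control replicates 1 to 4) and 3 from Klf13 knockout pups (knockout replicates 1 to 3). Klf13 encodes a Krüppel-like zinc finger factor, and the study asked how its loss alters gene expression during differentiation. The cultures were started from the brains of male and female newborn pups. Precursors were shaken off a mixed glial layer, microglia were removed, and the cells then stayed for 6 days in SATO medium, which contains thyroid hormones. Controls and knockouts thus shared the medium and the 6 days of differentiation. The knockout is constitutive in every cell of the pups, so Klf13 was also missing before differentiation was induced and in the other cell types of the cultures. The study counted separate animals or experiments as biological replicates, and how many pups went into a culture is not given in the sources used here.

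Oligodendrocytes, the myelinating glia of the central nervous system, arise from proliferating precursor cells (OPCs) that exit the cell cycle, pass through a premyelinating stage and then switch on myelin genes. OLIG2 and its close relative OLIG1 are basic helix-loop-helix proteins, of which OLIG2 specifies the lineage and both act again in differentiation. The HMG-box protein SOX10 is present from the OPC stage onwards and activates Myrf, whose product is a membrane-bound factor that is released by self-cleavage, enters the nucleus and, together with SOX10, activates myelin genes. SOX8 is the paralogue of SOX10 with partly shared function, NKX2-2 and NKX6-2 are homeodomain proteins of differentiating cells, and ZFP488, ZFP536 and ZFP24 are zinc finger proteins.

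The libraries held 24507471 to 59596479 counts on genes. Values are given as normalized counts, that is, each count over its library's TMM-scaled size, brought back to the average size. Groups were compared with edgeR's quasi-likelihood test, adjusted by the Benjamini-Hochberg method over 18352 genes, and all 10 genes passed the filter on low counts. The targeted gene Klf13 had 10670 to 12000 normalized counts in controls and 801.6 to 961.2 in knockouts, so each library matched its label. The cultures also held cells of other types. The summed normalized counts of 12 neuron markers were 23590 to 41290 in controls and 56070 to 78080 in knockouts, and 11 of the 12 rose. That count was 7 without control replicate 3, 5 without knockout replicate 1 and 4 without knockout replicate 2. The remaining marker, Elavl3, had 18670 normalized counts on average in controls and 13590 in knockouts, with a log2 fold change of -0.46, and was called lower with the replicate block and without knockout replicate 2. Those of 8 astrocyte markers were 104100 to 142200 against 199800 to 234500, and 7 of the 8 rose, which became 2 without knockout replicate 2 and 4 without knockout replicate 3. None of these markers had a group mean of 0. In a bulk sample, fewer cells of a type and less RNA per cell cannot be told apart, and the part of these markers in the results below was not tested.

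Of the 10 genes, 3 were lower in the knockout cultures at an adjusted p of at most 0.05 (Zfp536, Myrf and Zfp488) and 1 was higher (Sox8). Among all genes tested, 12.2% were lower and 11.6% were higher at that threshold. When a change of at least 1 on the log2 scale was also required, which was the study's own limit, Zfp536 and Myrf were lower, against 3.08% of all genes, and none of the 10 was higher, against 3.97%. The count above this limit was also 0 with DESeq2, and Sox8, the only 1 of the 10 at an unadjusted p of at most 0.05 on the higher side, had a log2 fold change of 0.27. The groups did not overlap in 4 of the 10 genes, which is near the 36.2% of all genes tested. The median log2 fold change was -0.20 over the 10 genes and 0.00 over all genes tested. Those 4 were Zfp536, Myrf, Zfp488 and Sox8, and the other 6 (Sox10, Olig1, Olig2, Nkx2-2, Nkx6-2 and Zfp24) had overlapping groups.

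**Figure D1:**
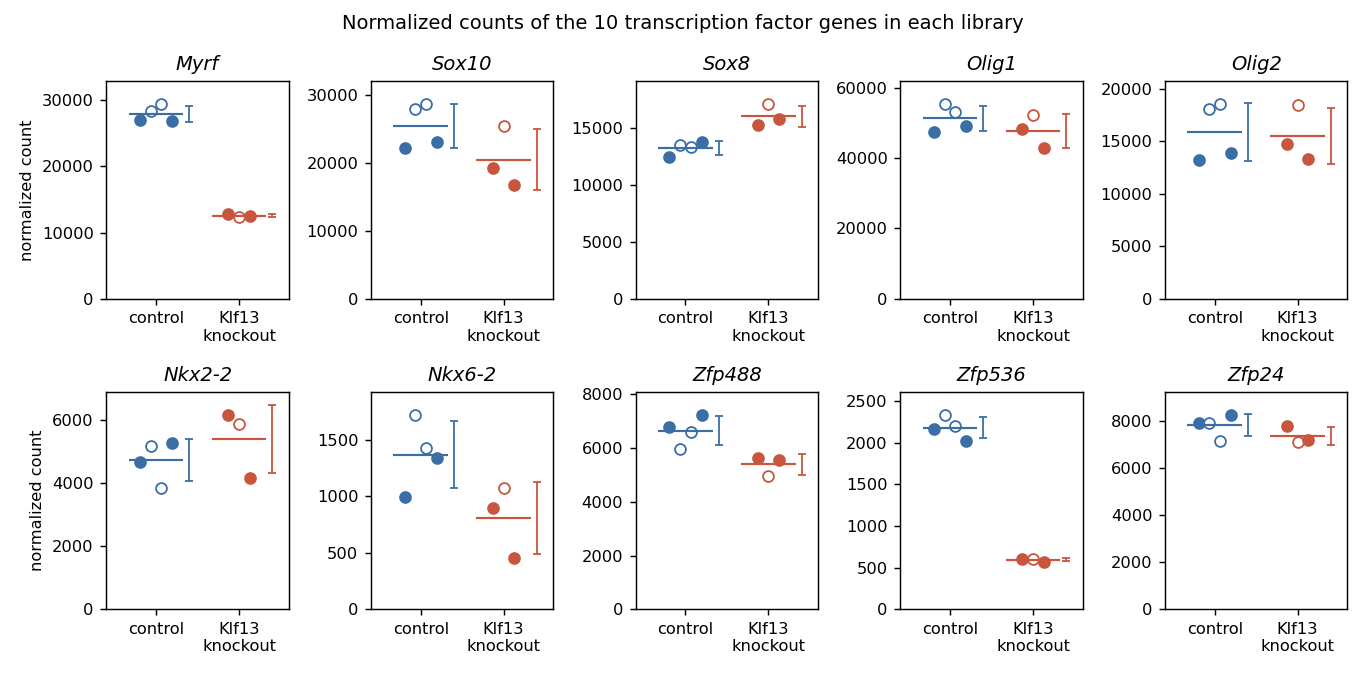
Normalized counts of the 10 transcription factor genes (vertical axes, each from 0) in the 4 control and 3 Klf13 knockout libraries (points), with group means (lines) and SDs (bars). Open points are the 3 libraries with at most 10% of their counts on genes that collect ribosomal RNA reads. Myrf and Zfp536 form separate groups with small spread, whereas Sox10, Olig2 and Nkx6-2 overlap.

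**Figure D2:**
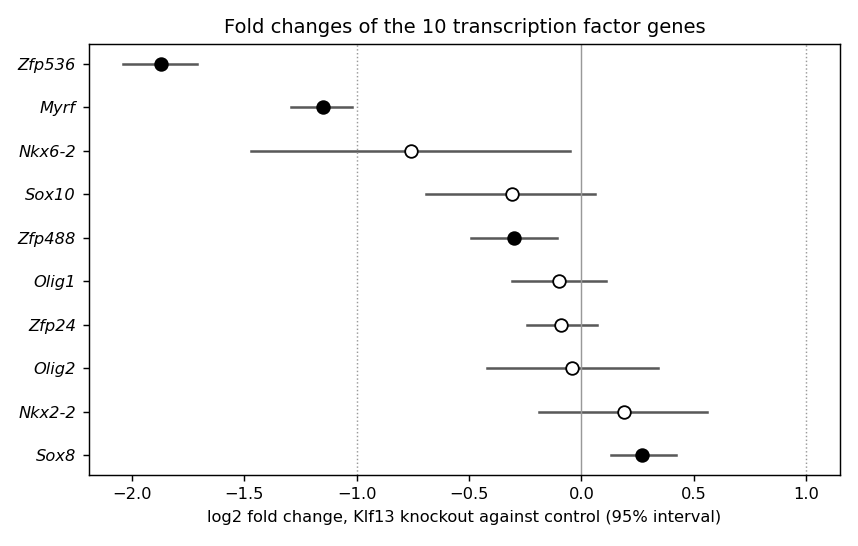
Log2 fold changes of the 10 genes in Klf13 knockout against control cultures (horizontal axis) with 95% intervals from edgeR. Filled points have an adjusted p of at most 0.05, and dotted lines mark -1 and 1. The interval of Zfp536 runs from -2.04 to -1.71 and that of Myrf from -1.29 to -1.02.

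Myrf, the central regulator of myelin gene expression, lies on the minus strand of chromosome 19 (GRCm38, chr19:10208272-10240748) and is counted over 8562 bases of exon. It had 27030, 28350, 29360 and 26780 normalized counts in control replicates 1 to 4. In knockout replicates 1 to 3 it had 12810, 12350 and 12450. Every knockout library stood well below every control, and the spread within each group was small, with a coefficient of variation of 4.32% in controls and 1.91% in knockouts. The mean fell from 27880 ± 1204 (SD, n = 4) to 12540 ± 239 (SD, n = 3), which is 45.0% of the control level. The log2 fold change was -1.15 with an SE of 0.06 (edgeR, adjusted p = 4.21e-05), the 34th smallest p of all genes tested.

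TMEM98 binds MYRF and blocks its self-cleavage, and FBXW7 is a ubiquitin ligase component that targets MYRF for degradation. Tmem98 fell from 3493 to 827.3 normalized counts on average (log2 fold change -2.08, edgeR adjusted p = 0.000108). Fbxw7 rose from 1176 to 1804 (log2 fold change 0.62, edgeR adjusted p = 0.00207). The paralogue Myrfl had 8.49 normalized counts on average in controls and 9.85 in knockouts and was not tested. These values are transcript levels, and the MYRF protein and its cleavage were not measured here.

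Sox10, which specifies and maintains oligodendroglial identity, lies on the minus strand of chromosome 15 (chr15:79154913-79164490). It had 22130, 27850, 28560 and 23020 normalized counts across the controls. The knockouts had 19280, 25400 and 16690. Knockout replicate 2 lay above 2 of the controls, so the groups overlapped. Each knockout was below the control with the same replicate number, but no source says what that number marks. By the same numbers Olig1, Olig2 and Zfp24 went both ways. The mean was 25390 ± 3279 (SD, n = 4) in controls and 20460 ± 4473 (SD, n = 3) in knockouts, or 80.6%. The log2 fold change of -0.31 had a 95% interval of -0.69 to 0.06 (edgeR, adjusted p = 0.207), which leaves room for a fall by 0.69 on the log2 scale. With the replicate block it was -0.37 (edgeR, adjusted p = 0.127). With offsets for the GC content of transcripts, Sox10 was past the threshold (log2 fold change -0.40, edgeR adjusted p = 0.00508). With the share of ribosomal RNA as a covariate the value was -0.16 (edgeR, adjusted p = 0.137).

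Sox8 lies on the minus strand of chromosome 17 (chr17:25565892-25570686) and moved in the other direction from Myrf. It had 12430, 13490, 13390 and 13800 normalized counts across the controls. The knockouts had 15270, 17100 and 15770. All 3 knockouts were above the highest control. The mean was 13280 ± 591 (SD, n = 4) in controls and 16040 ± 945 (SD, n = 3) in knockouts, or 121% of the control level. The log2 fold change was 0.27 with an SE of 0.06 (edgeR, adjusted p = 0.0205). This call was lost without knockout replicate 2 (log2 fold change 0.23, adjusted p = 0.0764) and without knockout replicate 3 (0.29, adjusted p = 0.0526).

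The antisense gene 2810468N07Rik starts 125 bases upstream of Sox8 on the other strand. It had a log2 fold change of 0.07 (edgeR, adjusted p = 0.41).

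Olig1 and Olig2 lie 41095 bases apart on the plus strand of chromosome 16 (Olig2 at chr16:91225550-91228677 and Olig1 at chr16:91269772-91271933). Olig1 had 47560, 55320, 53180 and 49220 normalized counts across the controls. The knockouts had 48260, 52210 and 42770. The lowest value was that of knockout replicate 3, and the other 2 knockouts lay within the controls. Its log2 fold change was -0.10 with a 95% interval of -0.31 to 0.11 (edgeR, adjusted p = 0.458). Olig2 had 13220, 18040, 18500 and 13850 normalized counts across the controls. The knockouts had 14700, 18420 and 13260. The 3 knockouts fell within the range of the controls, and the log2 fold change was -0.04 with a 95% interval of -0.42 to 0.34 (edgeR, adjusted p = 0.887). The direction for Olig2 was not stable, since it was 0.007 when libraries were scaled by total counts.

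Nkx2-2, a homeodomain factor that promotes the step from OPC to differentiating cell, lies on the minus strand of chromosome 2 (chr2:147177546-147194243). It had 4688, 5183, 3835 and 5288 normalized counts across the controls. The knockouts had 6162, 5894 and 4151. Knockout replicates 1 and 2 were above every control and knockout replicate 3 was below 3 of them. Each knockout was above the control with the same replicate number. The log2 fold change was 0.19 with a 95% interval of -0.19 to 0.56 (edgeR, adjusted p = 0.467), and 0.23 with the replicate block (adjusted p = 0.0856). The antisense gene Nkx2-2os shares 278 of the 2875 exon bases of Nkx2-2, and as the strand setting of the counting is not stated, the gene of origin is uncertain for reads in that stretch. Nkx2-2os had 175 normalized counts on average in controls and 169 in knockouts.

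Nkx6-2, a homeodomain factor of maturing oligodendrocytes, lies on the minus strand of chromosome 7 (chr7:139579376-139582797), 75.6 Mb from Klf13. It had 992.4, 1719, 1425 and 1339 normalized counts across the controls. The knockouts had 899.1, 1070 and 454.7. Control replicate 1 lay between the knockouts, so the groups overlapped, and the coefficient of variation was 21.9% in controls and 39.3% in knockouts. The knockout mean stood at 59.0% of controls. This was a log2 fold change of -0.76 with a 95% interval of -1.47 to -0.05 (edgeR, adjusted p = 0.113). Each knockout was below the control with the same replicate number, and the value with the replicate block was -0.83 (edgeR, adjusted p = 0.1). With GC offsets it was -0.90 (edgeR, adjusted p = 0.0141), and with the share of ribosomal RNA as a covariate -0.565 (adjusted p = 0.166). Inpp5a on the opposite strand shares 246 of the 1907 exon bases of Nkx6-2, so reads in that stretch are uncertain in the same way. Inpp5a itself fell from 2702 to 1590 normalized counts (log2 fold change -0.76, edgeR adjusted p = 0.000306).

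Zfp536 encodes a zinc finger protein known to restrain neuronal differentiation. It lies on the minus strand of chromosome 7 (chr7:37472135-37773641), 26.1 Mb from Klf13, and whether the shared chromosome has a part in its value was not tested. It had 2170, 2332, 2205 and 2019 normalized counts across the controls. The knockouts had 610.2, 604.9 and 572.7. No knockout library came near a control, and the coefficient of variation was 5.90% in controls and 3.40% in knockouts. The mean fell from 2181 ± 129 (SD, n = 4) to 596 ± 20.3 (SD, n = 3), or 27.3% of the control level. The log2 fold change was -1.87 with an SE of 0.07 (edgeR, adjusted p = 1.94e-05), which had the 10th smallest p of all genes tested.

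Zfp488 encodes a corepressor that works with OLIG2 in differentiation and lies on the minus strand of chromosome 14 (chr14:33967070-33978764). It had 6789, 5951, 6599 and 7219 normalized counts across the controls. The knockouts had 5640, 4942 and 5567. All 3 knockouts were below the lowest control, but the gap between 5640 and 5951 was narrow. The mean was 6639 ± 527 (SD, n = 4) in controls and 5383 ± 384 (SD, n = 3) in knockouts, or 81.1%. The log2 fold change was -0.30 with an SE of 0.08 (edgeR, adjusted p = 0.0339). The call was lost with upper quartile factors (-0.26, adjusted p = 0.101) and in 6 of the 7 fits that left out a library, with adjusted p-values up to 0.112.

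Zfp24 encodes a zinc finger protein needed for the last steps of myelination and lies on the minus strand of chromosome 18 (chr18:24009702-24020810). It had 7918, 7895, 7144 and 8234 normalized counts across the controls. The knockouts had 7790, 7086 and 7164. The groups overlapped, and the log2 fold change was -0.09 with a 95% interval of -0.24 to 0.07 (edgeR, adjusted p = 0.403). A fall of more than 0.24 on the log2 scale lay outside that interval.

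The 3 libraries with at most 10% of their counts on Gm42418, Gm23935 and Lars2, genes that collect ribosomal RNA reads, are control replicates 2 and 3 and knockout replicate 2. The other 4 libraries are above that limit, so both classes hold libraries of both groups. Sox10, Olig1, Olig2 and Nkx6-2 were higher in the low-share libraries than in the others within each group, while Zfp488 and Zfp24 were lower. For Olig2 the difference was 0.43 on the log2 scale within controls and 0.40 within knockouts. For Sox10 it was 0.32 and 0.50, and for Nkx6-2 it was 0.44 and 0.74. The transcripts of these 4 genes had GC contents of 58.5% to 64.3%, and those of Zfp488 and Zfp24 had 48.2% and 40.8%. The cause of this pattern was not tested.

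Within the low-share libraries (2 controls, 1 knockout), the log2 difference between knockout and control was -0.15 for Sox10, 0.01 for Olig2, -0.55 for Nkx6-2 and -0.34 for Zfp488. Within the others (2 controls, 2 knockouts) it was -0.33, 0.04, -0.85 and -0.32 for the same genes. Myrf differed by -1.22 and -1.09, Zfp536 by -1.91 and -1.82, and Sox8 by 0.35 and 0.24. These values within a class have no test. The 4 genes called kept their direction in both classes, which was fixed in advance because their groups did not overlap.

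Levels of different genes were compared per length, as counts per kilobase of exon scaled to library size (RPKM). In controls Olig1 had the highest level, 540 ± 37.5 RPKM (SD, n = 4), followed by Sox10 at 213 ± 27.5 and Olig2 at 148 ± 25.7. Sox8 was at 96.9 ± 4.31 and Myrf at 74.1 ± 3.20, and Zfp536 was the lowest at 5.38 ± 0.318. The ranges of neighbours in this order were separate in all but 1 pair, Nkx2-2 at 37.6 ± 5.25 and Zfp488 at 35.1 ± 2.79. In knockouts Olig1 was again highest, at 503 ± 49.9 RPKM (SD, n = 3), and Zfp536 lowest, at 1.47 ± 0.0501. Sox10 at 172 ± 37.5, Olig2 at 144 ± 24.9 and Sox8 at 117 ± 6.90 followed Olig1 in this order in each of the 3 knockouts, although the ranges of Sox10 and Olig2 and those of Olig2 and Sox8 overlapped. Myrf dropped from place 5 to place 6, at 33.3 ± 0.636, below Nkx2-2 in 2 of the 3 knockouts. Its share of the summed RPKM of the 10 genes was 6.21% in controls and 3.12% in knockouts. Sox8 made up 8.13% and 10.9%, and Olig1 45.2% and 46.7%.

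**Figure D3:**
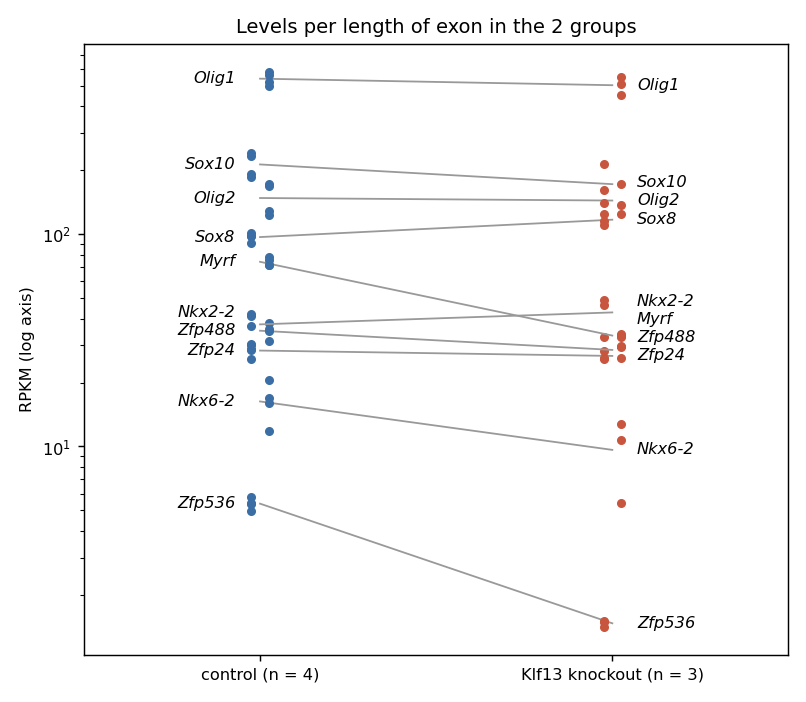
Levels per length of the 10 genes in RPKM (vertical log axis) in control and Klf13 knockout cultures. Points are libraries, shifted sideways to keep neighbours apart, and lines join the group means. Myrf and Zfp536 slope down, and Olig1 is the highest gene in both groups.

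Ratios of 2 genes within a library do not depend on the scaling of libraries. For 7 pairs, the log2 ratio of counts was compared between the groups with a two-sided exact permutation test over the 35 assignments of the labels, in which the smallest possible p is 0.0286, and p-values were adjusted over the 7 pairs. The ratio of Myrf to its activator Sox10 was 0.29, 0.03, 0.04 and 0.22 in the controls, against -0.59, -1.04 and -0.42 in the knockouts. It differed by -0.83 (exact permutation test, p = 0.0286, adjusted p = 0.05), so Myrf was lower relative to Sox10 in each knockout. The ratio of Sox8 to Sox10 was -0.83, -1.05, -1.09 and -0.74 in the controls, against -0.34, -0.57 and -0.08 in the knockouts, and was higher by 0.60 (exact permutation test, p = 0.0286, adjusted p = 0.05). All 3 knockouts lay above all 4 controls.

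The ratio of Olig1 to Olig2 was 1.85, 1.62, 1.52 and 1.83 in the controls, against 1.71, 1.5 and 1.69 in the knockouts. The ranges overlapped, and the difference was -0.07 (exact permutation test, p = 0.571). The ratio of Nkx6-2 to Nkx2-2 was -2.24 to -1.43 in controls and -3.19 to -2.46 in knockouts, without overlap. The difference was -1.0 (exact permutation test, p = 0.0571, adjusted p = 0.08). The ratio of Zfp536 to Zfp488 differed by -1.57 and that of Zfp24 to Myrf by 1.07, both without overlap (exact permutation test, p = 0.0286, adjusted p = 0.05 for each). Differences of ratios largely restate the fold changes of the single genes, and some genes enter more than 1 pair. The ratio of Zfp488 to Olig2 differed by -0.26 with overlap (exact permutation test, p = 0.343, adjusted p = 0.40).

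**Figure D4:**
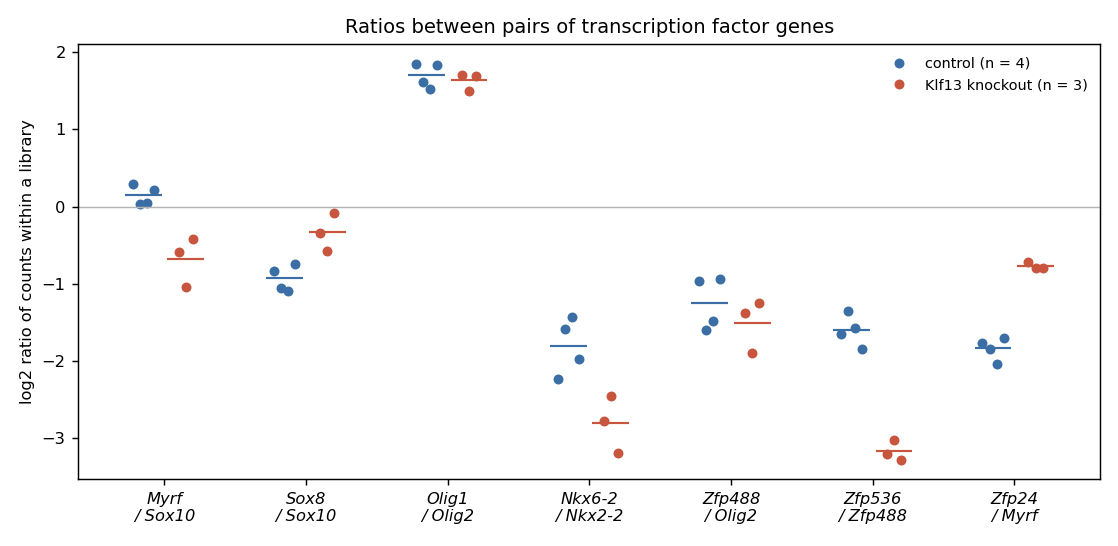
Log2 ratios of counts between pairs of the 10 genes within each library (vertical axis), with group means as lines. Ratios of Myrf to Sox10 and Zfp536 to Zfp488 are lower, and those of Sox8 to Sox10 and Zfp24 to Myrf higher, in every knockout library than in any control, whereas Olig1 to Olig2 overlaps.

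The genes whose values over the 7 libraries lay nearest those of Zfp536 and Myrf were looked up by the root mean square (RMS) difference of mean-centred log2 normalized counts among 18352 genes. For Zfp536 these were Mbp (RMS 0.081), which encodes a main myelin protein, Tmem88b (0.089), Avpr1a (0.096), Qdpr (0.097) and Eml1 (0.104). Myrf was 173rd in that order. For Myrf the nearest were Tubb4a (0.027), Fam13c (0.046), 5031439G07Rik (0.048), Map6d1 (0.050) and Adam19 (0.063), and Zfp536 was 1158th. These distances describe 7 libraries that share 2 groups and carry no test.

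Promoter windows of 250 bases before the start site were taken from RefSeq (GRCm38.p6) for 6 of the 10 genes. The windows of Nkx2-2 and Zfp536 run into annotated exons of the same gene and are not shown. Those of Sox8 (higher in knockouts), Zfp488 (lower) and Olig2 (no difference detected) are printed 5′ to 3′ on the strand of the gene, in order to show what stretches with differing responses hold. Capitals mark matches to the motif with which the study predicted binding sites of Krüppel-like factors. Its words are CCGCCC or ACGCCC or CCACCC or ACACCC or CCTCCC or ACTCCC, on either strand, with overlapping words counted separately. The Sox8 window is chr17:25570687-25570936 on the minus strand and includes part of an exon of 2810468N07Rik, the Zfp488 window is chr14:33978765-33979014 on the minus strand, and the Olig2 window is chr16:91225300-91225549 on the plus strand.
Sox8: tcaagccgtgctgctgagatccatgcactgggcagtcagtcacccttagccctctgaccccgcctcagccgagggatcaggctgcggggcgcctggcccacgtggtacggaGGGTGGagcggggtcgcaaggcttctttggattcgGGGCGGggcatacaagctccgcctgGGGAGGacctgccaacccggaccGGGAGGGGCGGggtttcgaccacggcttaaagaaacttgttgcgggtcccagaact
Zfp488: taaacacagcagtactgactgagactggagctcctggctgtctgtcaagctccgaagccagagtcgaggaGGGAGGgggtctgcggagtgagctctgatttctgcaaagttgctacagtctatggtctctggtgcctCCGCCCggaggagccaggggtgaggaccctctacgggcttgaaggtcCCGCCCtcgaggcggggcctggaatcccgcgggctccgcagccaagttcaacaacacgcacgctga
Olig2: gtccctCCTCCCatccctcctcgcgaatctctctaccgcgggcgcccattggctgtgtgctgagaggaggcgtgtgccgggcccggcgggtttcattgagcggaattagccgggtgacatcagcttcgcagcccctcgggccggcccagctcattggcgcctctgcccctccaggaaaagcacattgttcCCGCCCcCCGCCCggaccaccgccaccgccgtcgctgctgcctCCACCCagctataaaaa

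Sox8 held 5 such words, a number reached by 13.5% of 32851 RefSeq promoter windows of the same length. Olig2 held 4 (21.3% of windows held as many) and Zfp488 held 3 (33.0%). Of all windows, 72.6% held at least 1. The window of Nkx6-2 held 1 word, that of Zfp536 held 1 and that of Nkx2-2 held 7. The words are matches of letters, and binding of KLF13 was not measured in these libraries.

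The 10 genes were set beside other regulators of the lineage. Of 22 tested genes in a list of further lineage-promoting regulators, 2 were lower and 5 higher (edgeR, adjusted p of at most 0.05), with a median log2 fold change of 0.07. Prox1 fell by 1.0 on the log2 scale (edgeR, adjusted p = 0.000518) and St18, a zinc finger gene related to Myt1, by 1.28 (adjusted p = 0.000534). Nfib (0.94), Sox9 (0.82), Rxrg (0.95), Tcf4 (0.37) and Hdac2 (0.24) rose. Without knockout replicate 2, none of the 22 was called higher, and without knockout replicate 1 it was 3. Of 12 regulators that hold differentiation back, Sox11 (1.06), Id3 (0.56) and Hey1 (0.24) rose and none fell, with a median of 0.30. In that list 5 rose with DESeq2 and also with the replicate block, and 0 without knockout replicate 2 and 1 without knockout replicate 3. No gene of it was lower at an unadjusted p of at most 0.05. Several of these genes, such as Sox9, Nfib and Id3, are also expressed by astrocytes, and Sox11 and Tcf4 by neurons, and the part of those cells was not tested.

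Of 15 listed relatives of the 10 genes, 11 had too few counts to be tested. Among the 4 tested, Sox9 was called, with 1429 normalized counts on average in controls and 2520 in knockouts. The number called higher was 0 without knockout replicate 2 and 2 without knockout replicate 3. Olig3 had a mean of 0 normalized counts in controls and 0.229 in knockouts, and Nkx6-1 had 7.74 and 2.19. Zfp516, related to Zfp536, had 4436 in controls and 4112 in knockouts (log2 fold change -0.11).

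Of 20 genes of mature oligodendrocytes, some of which are known targets of SOX10 and MYRF, 19 fell (edgeR, adjusted p of at most 0.05) and none rose, with a median log2 fold change of -1.75. Some of these genes were named by the study from the same libraries, so this count is not independent evidence. Mbp fell from 448300 to 130200 normalized counts on average. Cntn2 was the exception, with a log2 fold change of 0.06 (adjusted p = 0.894). The fall of Myrf by 1.15 and that of Zfp536 by 1.87 lie on the 2 sides of this median. Sox10 (-0.31) and Olig1 (-0.10) were nearer 0 than any of the 19.

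OPC markers did not follow the mature genes. Of 8 OPC markers, 4 rose at the adjusted threshold (edgeR), with a median of 0.24. None fell, also at an unadjusted p of at most 0.05 and with DESeq2. Pdgfra, the receptor that defines OPCs, had a log2 fold change of 0.07 and was not called. Without knockout replicate 1 or 2, 2 of the 8 rose. Of 8 markers of newly formed oligodendrocytes, which include Nkx2-2, 3 fell and 1 rose, with a median of -0.19, and 1 fell with the replicate block. None of the 8 was called lower by edgeR without control replicate 4 or when any of the knockout replicates was left out. The count of those higher was 2 without control replicate 4 and 0 without knockout replicate 2.

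**Figure D5:**
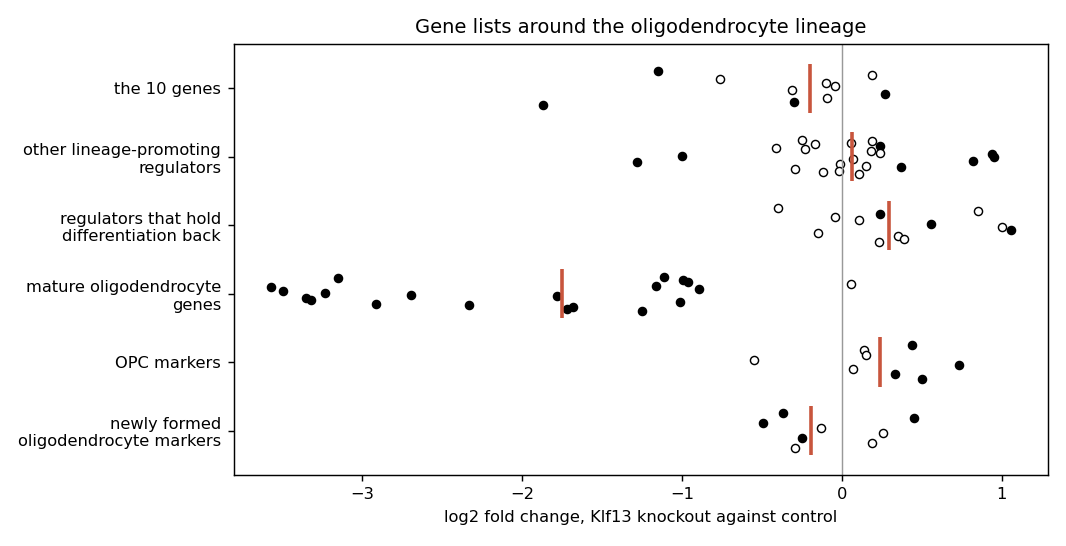
Log2 fold changes in Klf13 knockout against control cultures (horizontal axis) of the tested genes in 6 lists, with list medians as red lines. Filled points have an adjusted p of at most 0.05. Mature oligodendrocyte genes lie below 0 in 19 of 20 cases, whereas the 10 transcription factor genes spread from -1.87 to 0.27.

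Within 50 kb of the 10 genes, 29 other genes are annotated, of which 20 were tested, 4 fell and 0 rose (edgeR). Among all genes tested, 12.2% fell and 11.6% rose at that threshold of an adjusted p of at most 0.05. Besides Inpp5a, these were Fen1 near Myrf (log2 fold change -0.77, adjusted p = 0.00664), and Micall1 (-0.94, adjusted p = 0.000334) and Gm10863 (-0.50, adjusted p = 0.0102) near Sox10. Dagla, Fads1, Tmem258 and Gm10143, the other tested neighbours of Myrf, were not called. Neither gene called near Sox10 shares exon bases with it.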

How the data were processed

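RNA from 7 cultures of primary mouse oligodendroglia was sequenced as paired ends on an Illumina NovaSeq after NEBNext Ultra II library preparation. Trimming was done by the authors with Trimmomatic 0.36, mapping to GRCm38 with STAR 2.5.2b and counting within exons with featureCounts of Subread 1.5.2. The deposited values are whole counts per gene, without normalization. The annotation release and the strand setting are not given in the sources used here. Of 49315 identifiers, 48970 had a symbol and 49056 were in GENCODE M21.

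Depth was 24507471 to 59596479 counts on genes per library. Counts were filtered with filterByExpr by group, scaled with TMM and tested with edgeR 4.0.16 (quasi-likelihood, robust, group only, R 4.3.3) over 18352 genes, with two-sided p-values adjusted by Benjamini-Hochberg. RPKM values used the deposited gene length. Ratios used counts plus 0.5. The members and lists were chosen with earlier results of these data known. All 10 members are named, and other genes by list rank, neighbourhood within 50 kb or likeness over libraries, with a few others named after their values were seen. The deviations of same-numbered control and knockout libraries had correlations of 0.11, 0.46 and 0.17. Those of unlike numbers were -0.53 to 0.20, of which 3 were above 0.11. Only the value of 0.46 lay outside the range of unlike numbers, so these values do not show that same-numbered libraries in general deviated together. The replicate number was also fitted as a block, although no source says what it marks. Alternatives included DESeq2 1.42.0, limma 3.58.1 voom, other scalings and filters, GC and length offsets, the ribosomal RNA share and leaving out each library. The scripts were tested on simulated data. The values of some listed genes are not reported here.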

Additional observations from a re-analysis of the deposited data

Results flagged for a closer look

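Among 31 groups of 4 control values looked at, 2 held a library far from the other 3. Chance flags about 1 in 20 groups, and 2 of 31 is close to that rate. The summed normalized count of the 12 regulators that hold differentiation back was 73540 in control replicate 2, with a gap of 0.909 of the range of the controls. That of the 8 microglia markers was 57960 in control replicate 3 against 12120 to 13460 in the other controls, with a gap of 0.971 of the range. None of the 10 transcription factor genes had such a library. Without control replicate 3 the log2 fold change of Zfp488 was -0.31 (edgeR, adjusted p = 0.0539) and that of Sox8 was 0.28 (adjusted p = 0.0343).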

How the results depend on the processing

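Myrf and Zfp536 kept their direction and their call in all 20 alternative fits, with log2 fold changes of -1.18 to -1.11 and -1.91 to -1.83. The alternatives chosen after seeing the data were the GC offsets with the replicate block, the 2 classes of ribosomal RNA share and leaving out libraries for the lists. With GC content offsets 5 of the 10 genes were lower, with and without the replicate block, since Sox10 (-0.40, and -0.405 with the block) and Nkx6-2 (-0.903, and -0.893 with the block) were then called; the cause was not tested. With upper quartile factors Zfp488 was -0.264. Olig2, which was never called, was 0.00 with upper quartile factors, 0.007 with total counts and 0.135 when the share of ribosomal RNA was a covariate. Without single libraries, the log2 fold change ran from -0.186 to 0.068 for Olig2, from 0.23 to 0.32 for Sox8, from -0.35 to -0.24 for Zfp488, from -0.50 to -0.18 for Sox10 and from -1.03 to -0.47 for Nkx6-2. It ran from 0.09 to 0.35 for Nkx2-2, from -0.17 to -0.02 for Olig1 and from -0.13 to -0.04 for Zfp24. In these fits 2 to 3 genes were lower and 0 to 1 higher, with 0 higher without knockout replicate 2 or 3. Shares of all genes called are given here for the main fit only, so calls in other fits have no such share beside them. Within libraries of low and high ribosomal RNA share Myrf was -1.22 and -1.09, and Sox8 was 0.347 within the low class. With the replicate block, the adjusted p of edgeR was 0.00105 for Myrf and 0.000583 for Zfp536, and the block changed no call among the 10 genes. No ratio changed direction under any alternative run, but in the pairs without overlap leaving out a library could not change it. The ratio of Olig1 to Olig2 differed by -0.001 without knockout replicate 2 and by -0.128 without control replicate 3. That of Zfp488 to Olig2 differed by -0.069 without knockout replicate 2 and by -0.393 without knockout replicate 3. No scaling moved the median of all genes by more than 0.045 on the log2 scale. The 95% intervals of Sox10, Olig2, Nkx2-2 and Nkx6-2 were the widest of the 10.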

Other observations

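Markers of further cell types moved with the genotype or with single libraries. The summed normalized counts of 7 fibroblast and mural cell markers were 11330 to 49740 in controls and 5108 to 11670 in knockouts, and control replicates 3 and 4 held the highest sums. At an adjusted p of at most 0.05 edgeR called 1 of the 7 lower, DESeq2 4 and the fit with the replicate block 3. With edgeR it was 4 without control replicate 2 and 0 when control replicate 1, 3 or 4 or knockout replicate 1 or 2 was left out. The 8 microglia markers summed to 10540 to 24150 in knockouts. None of the 8 was called by edgeR, by DESeq2 or at an unadjusted p of at most 0.05. Of 5 markers of Schwann cells, a peripheral cell type that also expresses SOX10, 2 were lower, and 1 without knockout replicate 1 or 2. Of 4 endothelial markers, 3 were tested and Cdh5 was lower, with 188 normalized counts on average in controls and 27.5 in knockouts (log2 fold change -2.75, edgeR adjusted p = 0.0483). That call was lost without control replicate 1, 3 or 4 and without knockout replicate 1 or 2. Cldn5 was at 0 in all controls.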
